A study of Mus musculus with 4 samples.

Results

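Collagen genes were followed across the cell classes of the fetal mouse gonad. They were taken as every row of the deposited expression table whose symbol is Col, a number, the letter a and a number, which gave 43 of 19321 genes. The study profiled gonads of C57BL/6 XX embryos at 4 embryonic stages, E11.5 to E14.5 in steps of a day, with 1 library of droplet-captured single cells per stage. The labels name no mutation, transgene, treatment or sort for any stage, and the number of embryos behind a library is not given in the sources used here. Because each stage is 1 library, stage and library cannot be told apart.

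Collagens are extracellular proteins built from alpha chains that wind into triple helices, and each Col gene encodes 1 kind of chain. Fibrillar chains such as those of type 1 and type 3 make the load-bearing fibres of connective tissue, the type 4 chains make the sheet-like network of basement membranes, and the type 6 chains make beaded filaments between cells and fibres. In the developing gonad, basement membranes surround vessels and line the surface epithelium, while mesenchymal cells of the interstitium lay down fibres between them.

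The 5 classes of cells were set by marker genes with at least 1 unique molecular identifier (UMI, a tag that counts a captured transcript once). Interstitial cells had Tcf21 with Pdgfra or Acta2, surface epithelium cells had Upk3b with Krt19 or Krt7, and endothelial cells had Pecam1 with Cdh5. Supporting cells, the somatic lineage that surrounds the germ cells, had at least 3 of Fst, Wnt4, Wnt6, Irx3 and Runx1, and germ cells had at least 3 of Dazl, Ddx4, Dnd1, Mael, Dppa5a and Mov10l1. In stage order, 379, 245, 572 and 189 interstitial cells, 564, 540, 394 and 349 surface epithelium cells, and 2106, 2114, 1714 and 656 supporting cells were found. The endothelial class held 131, 174, 85 and 35 cells, and the germ class held 224, 594, 708 and 2273. Cells that met more than 1 rule (1592 cells) were left out of every class, and 3327 cells met none, of which 323 were erythroid.

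Of the 5 markers per class that the rules did not use, the highest mean level was in the named class for 5 interstitial, 5 endothelial, 5 germ, 4 supporting and 3 surface epithelium markers. Wnt5a among the supporting markers, and Aldh1a1 and Lgr5 among the surface epithelium markers, were not. Foxl2, a defining gene of the ovarian supporting lineage, was close to 0 in supporting cells, at no more than 0.344 CPM in any library (counts per 1000000 UMIs of the class). Msln, 1 of the 3 surface epithelium markers, was at 0.109, 0.129, 0.201 and 2.11 CPM there in stage order. Germ cells had more Msln at E11.5, E12.5 and E13.5 (0.279, 0.174 and 0.388 CPM), so its highest mean rests on E14.5. Libraries held 4787 to 4916 barcodes and 69458291 to 80377418 UMIs. Scrublet marked 94 to 113 barcodes per library as doublets, which were removed, and 354 of 19387 cells had a barcode that also occurred in another library. The summed erythroid markers in supporting cells, a measure of free RNA, were at 335, 1542, 1731 and 9294 CPM in stage order.

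All 43 genes were located in the GENCODE annotation of GRCm38, and several stand as close neighbours. Col4a1 on the minus strand and Col4a2 on the plus strand of chromosome 8 are transcribed away from each other, from starts at 11312826 and 11312805, so that their first exons share 22 bases. Col4a4 and Col4a3 on chromosome 1 are arranged in the same way with starts 72 bases apart, and Col4a6 and Col4a5 on the X chromosome with starts 1309 bases apart. Col3a1 and Col5a2 on chromosome 1 are convergent, with 24614 bases between their ends. The shared start of Col4a1 and Col4a2 is printed because the levels of these genes are compared below (chr8:11312801-11312830, plus strand, GRCm38.p6, capitals mark the bases that both transcripts include):
Col4a1 and Col4a2: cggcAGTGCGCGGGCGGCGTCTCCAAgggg

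The 250 bases before the RefSeq start of 4 further genes are printed because they are among the 5 collagen genes with the highest mean level in interstitial cells. RefSeq (GRCm38.p6) gave such a window for 34 of the 43 genes, 37 windows in all, and Col1a1 was not among them. The letters CCAAT, searched on both strands, were found in 13 of the 37 windows and in 33.8% of 32851 promoters of the same length. The letters TATAAA were found in 4 windows and in 12.4% of promoters. Capitals mark a match below, at chr6:4505368-4505617 (plus strand) for Col1a2, chr1:45311288-45311537 (plus) for Col3a1, chr10:76726045-76726294 (minus) for Col6a1 and chr10:76623631-76623880 (minus) for Col6a2:
Col1a2: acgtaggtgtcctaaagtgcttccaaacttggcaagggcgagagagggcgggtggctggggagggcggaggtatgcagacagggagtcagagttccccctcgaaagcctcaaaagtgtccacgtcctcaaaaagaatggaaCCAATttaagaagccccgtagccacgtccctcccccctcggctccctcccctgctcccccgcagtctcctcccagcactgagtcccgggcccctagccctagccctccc
Col3a1: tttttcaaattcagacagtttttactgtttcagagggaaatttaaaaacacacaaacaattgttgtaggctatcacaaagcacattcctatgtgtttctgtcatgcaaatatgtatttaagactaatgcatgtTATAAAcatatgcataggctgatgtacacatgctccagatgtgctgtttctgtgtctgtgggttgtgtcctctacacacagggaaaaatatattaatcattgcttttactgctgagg
Col6a1: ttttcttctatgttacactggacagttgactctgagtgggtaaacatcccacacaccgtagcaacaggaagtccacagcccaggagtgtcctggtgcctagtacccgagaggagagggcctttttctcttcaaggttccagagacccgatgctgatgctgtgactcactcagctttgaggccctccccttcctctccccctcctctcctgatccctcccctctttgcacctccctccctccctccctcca
Col6a2: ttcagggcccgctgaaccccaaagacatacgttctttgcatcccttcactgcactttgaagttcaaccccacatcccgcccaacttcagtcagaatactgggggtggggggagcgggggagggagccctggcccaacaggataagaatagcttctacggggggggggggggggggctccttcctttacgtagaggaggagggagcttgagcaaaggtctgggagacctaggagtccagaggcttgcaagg

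Among the 5 classes, the summed collagen level was highest in interstitial and endothelial cells and lowest in germ cells. For each library, the UMIs of a gene in all cells of a class were set against the UMIs of all genes in those cells, which gives the CPM value. This 3′ method tags the end of a transcript, so CPM values are not divided by transcript length. In stage order, the 43 genes together stood at 1084, 1315, 1980 and 3018 CPM in interstitial cells and at 1179, 1388, 1731 and 1568 CPM in endothelial cells. Surface epithelium cells had 394, 485, 613 and 731 CPM, and supporting cells had 253, 336, 425 and 665 CPM. Every library of the interstitial and endothelial classes lay above every library of the surface epithelium and supporting classes. Germ cells had 91.8, 93.7, 125.9 and 128.7 CPM. Erythroid cells, used here for the level that free RNA can give, had 25.4, 31.4, 32.2 and 75.9 CPM. Of their 398 collagen UMIs at E14.5, 159 were Col5a1, which there stood above its level in 4 of the 5 classes. Erythroid cells had a median of 23206 to 30199 UMIs per library, against 9530.5 to 13820 in supporting cells. Their values may therefore not give the free RNA level of shallower cells.

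From E11.5 to E14.5 the sum was higher by 1.48 on the log2 scale in interstitial cells (95% interval for counting error 1.43 to 1.53) and by 1.40 in supporting cells (1.34 to 1.45). The difference was 0.89 in surface epithelium cells (0.82 to 0.96), 0.49 in germ cells (0.37 to 0.61) and 0.41 in endothelial cells (0.29 to 0.53). The endothelial value at E14.5 rests on 35 cells. The erythroid sum was also higher at E14.5 than at E11.5, and the part of free RNA in these differences was not tested. Median-of-ratios scaling would add -0.36 to every such difference in germ cells and -0.11 in supporting cells. All intervals cover counting error only. With 1 library per stage, 1 stage cannot be tested against another, and a trend over the stages was not tested.

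**Figure D1:**
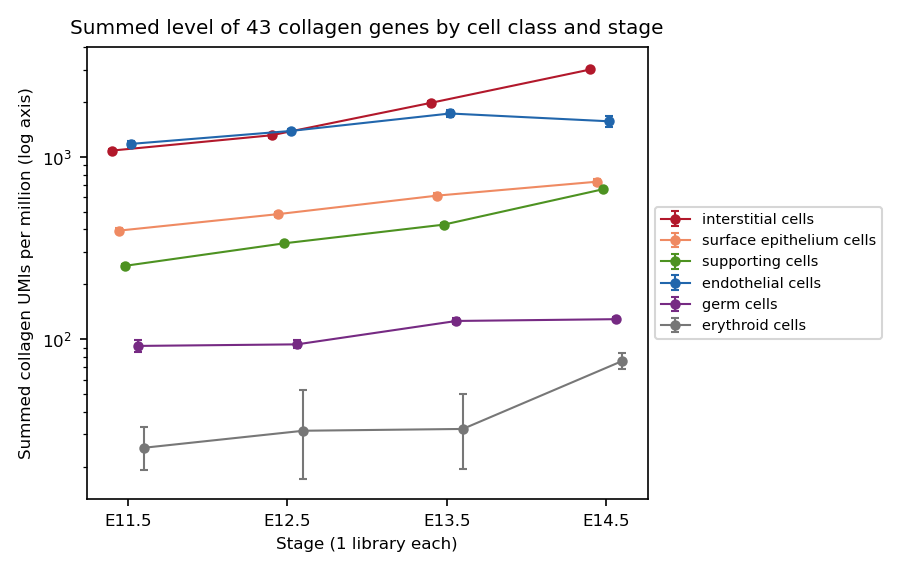
Summed CPM of the 43 collagen genes (log axis) against stage, 1 library per stage, for 5 classes and erythroid cells, with exact Poisson 95% intervals as bars. Interstitial cells go from 1084 to 3018 CPM, and erythroid cells go from 25.4 to 75.9 CPM.

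The make-up of the sum differed between classes. Fibrillar chains gave 61.7%, 58.5%, 63.4% and 66.4% of the collagen UMIs of interstitial cells in stage order and 60.5% to 68.3% in surface epithelium cells. The type 4 basement membrane chains gave 55.0% to 63.6% in endothelial cells, and Col15a1 and Col18a1 together gave a further 24.7% to 38.0% there. These 2 multiplexins, basement membrane collagens with interrupted helices, gave 32.9% to 62.5% in germ cells. In supporting cells the chains that attach to fibril surfaces (FACIT collagens) gave 30.8% at E11.5 and 9.0% at E14.5, while fibrillar chains went from 23.7% to 40.4%. As levels, FACIT chains there were at 77.7 and 59.7 CPM at these stages and fibrillar chains at 59.8 and 268.7 CPM.

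**Figure D2:**
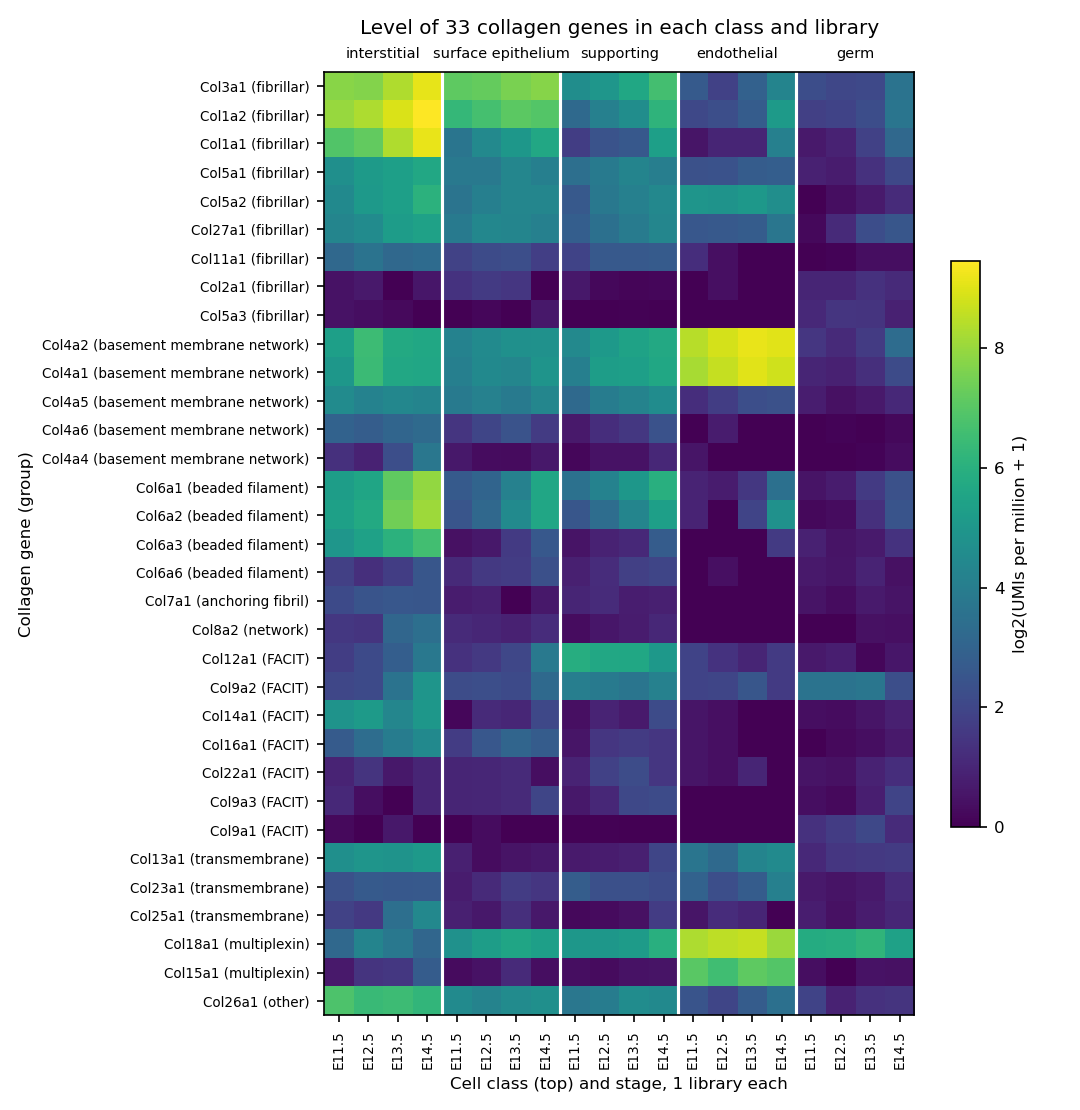
Colour gives log2(CPM + 1) of the 33 collagen genes with at least 100 UMIs (rows, by group) in each class and library (columns, E11.5 to E14.5 within a class). The type 1, 3 and 6 rows are brightest in interstitial columns, the Col4a1, Col4a2, Col15a1 and Col18a1 rows in endothelial columns, and Col12a1 in supporting columns.

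Class differences were tested over 19 class sums with limma on log2(CPM + 1), with the library as a block, on the 14389 genes with at least 100 UMIs. The endothelial sum at E14.5 held fewer than 50 cells and was left out of these fits. A gene was called at a Benjamini-Hochberg adjusted p under 0.05 and a log2 difference of at least 1 from the mean of the other 4 classes, and 33 of the 43 collagen genes could be tested. The p-values measure the spread of class differences over 4 libraries that are also 4 stages. The 5 contrasts share the same sums and are not independent of each other.

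Interstitial cells had the most collagen genes above the other classes. Of the 33 tested, 20 were higher and 1 was lower, against 8.45% and 5.21% of all genes tested, and the median difference was 1.87 for the collagen genes and 0.02 for all genes. All 20 were higher in 4 of 4 libraries. Col4a4 and Col8a2 among them reached 100 UMIs only through interstitial cells, so their calls support nothing. For the others the adjusted p was at most 4.78e-05 (limma, Col25a1). Beside this, the perivascular markers Rgs5, Cspg4, Mcam, Notch3 and Myh11 summed to 70.9, 97.8, 47.0 and 48.1 CPM in interstitial cells, and none of the 5 was at 0. Their part in the result was not tested.

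Of the collagen genes, Col1a1 had the largest difference between interstitial and other cells. Col1a1, the alpha-1 chain of type 1 collagen, stood at 117, 143, 323 and 570 CPM in interstitial cells. It did not exceed 50.8 CPM in surface epithelium, 39.6 CPM in supporting, 16.2 CPM in endothelial or 8.28 CPM in germ cells, so the interstitial libraries did not overlap any other class. The difference was 5.21 ± 0.21 (SE, 4 libraries), with an adjusted p of 1.86e-11 by limma. Col1a2, which encodes the alpha-2 chain, stood at 254, 312, 485 and 707 CPM in interstitial cells and at 77.2, 102.1, 133.0 and 120.0 CPM in surface epithelium cells. Its difference was 4.58 ± 0.20 (SE), with an adjusted p of 2.78e-11 by limma, and the 2 classes again did not overlap.

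Other fibrillar chains had the same direction with smaller differences than the type 1 chains. Col3a1, the chain of type 3 collagen in soft tissue, was at 222, 211, 322 and 557 CPM in interstitial cells with a difference of 3.71 ± 0.17 (SE; limma adjusted p 4.13e-11). Its interstitial value at E12.5 was below its surface epithelium value of 216.5 CPM at E14.5, so these classes overlapped across stages although interstitial cells were higher within each library. The type 5 chains, which set fibril width, were at 25.5, 34.7, 39.6 and 50.5 CPM for Col5a1 and at 21.7, 32.97, 39.6 and 67.1 CPM for Col5a2. They differed by 2.27 and 1.87 from the other classes. Col11a1 (2.03) and Col27a1 (1.83) were also called higher, and Col2a1 and Col5a3 were not.

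Among the type 6 chains, Col6a3, the long chain, had the second largest difference of all, after Col1a1. It stood at 30.4, 41.5, 66.4 and 97.1 CPM in interstitial cells and at no more than 5.81 CPM in any library of the other 4 classes. Its difference was 4.81 ± 0.21 (SE), with an adjusted p of 2.78e-11 by limma, and Col6a6 (0.82) was not called. Col6a2 stood at 41.1, 52.3, 167.8 and 273.2 CPM and Col6a1 at 37.7, 46.6, 140.5 and 242.3 CPM, with differences of 4.06 and 3.63. For both, the values at E11.5 and E12.5 overlapped the E14.5 values of surface epithelium and supporting cells, which reached 47.3 and 40.0 CPM for Col6a2 and 47.9 and 62.2 CPM for Col6a1.

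Interstitial calls also covered the smaller groups. Col14a1, a FACIT chain, was at 28.1, 34.7, 19.1 and 30.9 CPM against at most 3.44 CPM in other classes, with a difference of 4.05. Col26a1 was at 113.1, 85.0, 87.9 and 74.3 CPM against at most 25.4 CPM elsewhere, with a difference of 3.35. Col13a1, a transmembrane collagen, was at 25.5, 29.8, 27.9 and 34.3 CPM with a difference of 3.19. Col16a1, Col4a6, Col25a1, Col7a1 (the anchoring fibril chain), Col8a2, Col4a5 and Col4a4 were called with differences of 1.69 to 2.50. Of the 20 genes, Col4a4 (59 UMIs in interstitial cells and 51 in the other classes) and Col8a2 (81 and 87) would not have reached 100 UMIs without interstitial cells. Col18a1 was the gene called lower (-2.62), at 8.11, 18.5, 12.8 and 7.62 CPM.

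Surface epithelium cells shared the type 1 and type 3 chains with interstitial cells at a lower level. Of 33 genes tested, 5 were higher and 2 lower, against 6.79% and 4.2% of all genes. Col3a1 was at 136.9, 150.3, 186.6 and 216.5 CPM, 2.67 ± 0.17 (SE) above the other classes with an adjusted p of 3.40e-09 by limma. Col1a2 was 2.17 ± 0.20 (SE) above, with an adjusted p of 2.50e-07 by limma. Col4a5, a type 4 chain encoded on the X chromosome, stood at 13.8, 16.8, 13.9 and 19.3 CPM and differed by 1.34. Col1a1 differed by 1.23 and was higher in 3 of 4 libraries, and its call was lost without the replicate block (1.35) or with doublets kept (0.98). Col16a1 differed by 1.09, and by 0.90 with no call when the E13.5 library was left out. Col13a1 (-2.25) and Col15a1 (-1.76) were the 2 called lower. Interstitial markers summed to 530, 631, 819 and 607 CPM in surface epithelium cells, against 1171, 1267, 1931 and 1952 CPM in interstitial cells, and their part in these values was not tested.

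A direct contrast of interstitial and surface epithelium cells called 21 collagen genes higher and 1 lower in interstitial cells, against 5.23% and 4.92% of all genes. The largest differences were 4.47 for Col6a3, 4.35 for Col13a1, 3.75 for Col14a1 and 3.19 for Col1a1, while Col18a1 was lower by 1.65 (-1.65). When cells of several classes were counted in each class whose rule they met, 14 genes were called in place of 22, while the share of all genes called went from 10.15% to 5.42%.

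Supporting cells stood apart by Col12a1. This FACIT chain, which binds the surface of type 1 fibrils, was at 59.4, 50.8, 48.4 and 32.0 CPM in supporting cells and at no more than 13.2 CPM in any library of another class. The difference was 3.83 ± 0.35 (SE), with an adjusted p of 8.40e-08 by limma, and the classes did not overlap. After each cell was thinned to 5000 UMIs, 24.2%, 20.4%, 20.4% and 13.6% of supporting cells had a Col12a1 UMI (48.1%, 40.5%, 37.2% and 26.7% unthinned). Of 323 erythroid cells over the 4 libraries, 0.310% had a Col12a1 UMI after thinning and 0.619% before.

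In all, 4 collagen genes were higher and 2 lower in supporting cells, against 13.1% and 6.06% of all genes, so the count of higher genes was close to the background. Col6a1 was at 10.6, 17.4, 31.2 and 62.2 CPM, with a difference of 1.39 that went to 0.97 and was no longer called when cells of several classes were counted in each. Col4a5 was at 8.37, 14.8, 17.9 and 23.5 CPM, with a difference of 1.27. Col9a2, a FACIT chain best known from cartilage, was at 15.6, 13.7, 11.8 and 16.9 CPM, with a difference of 1.14 and an adjusted p of 0.0172 by limma. Its call was lost without the E11.5 library (0.97), without the E12.5 library (1.06) and with cells of several classes counted in each (0.87). Col15a1 and Col13a1 were the 2 lower genes.

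Against supporting cells, interstitial cells had 19 collagen genes higher and 2 lower, against 8.3% and 11.3% of all genes. The 2 lower genes were Col12a1 (-2.95) and Col18a1 (-1.71). Col1a1 (4.87), Col6a3 (4.45) and Col1a2 (4.14) had the largest differences.

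Endothelial cells carried a different set. Of 33 genes, 6 were higher and 15 lower than in the other classes, against 10.8% and 13.46% of all genes, and all 21 kept their direction in 3 of 3 libraries fitted. Col15a1, a multiplexin of vessel basement membranes, stood at 129.5, 92.9, 137.4 and 121.7 CPM against at most 5.71 CPM elsewhere. It had 776 UMIs in endothelial cells and 91 in the other classes, and so reached 100 UMIs only through them. Its difference of 6.28 ± 0.26 (SE) is therefore a description. Col4a1 stood at 300, 398, 527 and 442 CPM and Col4a2 at 347, 460, 570 and 529 CPM, against at most 87.3 and 89.5 CPM in any library of the other classes. Their differences were 4.65 ± 0.22 and 4.62 ± 0.27 (SE), with adjusted p of 1.15e-11 and 2.20e-10 by limma, and no library overlapped.

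Col18a1, the chain that carries the endostatin domain, stood at 318, 365, 394 and 266 CPM in endothelial cells and differed by 3.49. Col13a1 (1.85) and Col5a2 (1.73) completed the higher set. Both were also called higher in interstitial cells against the other classes (3.19 and 1.87). Against interstitial cells alone, Col13a1 was called lower in endothelial cells (-1.08) and Col5a2 was not called (-0.11). Col5a2 was at 29.9, 28.2, 31.7 and 24.3 CPM, while its partner chain Col5a1 stayed between 4.08 and 6.09 CPM. The lower genes included Col3a1 (-3.12), Col1a1 (-2.97), Col1a2 (-2.90) and the 4 tested type 6 chains, Col6a1, Col6a2, Col6a3 and Col6a6. Col1a1 was at 0.453, 0.971, 0.961 and 16.2 CPM in endothelial cells, of which the last is 8 UMIs in 35 cells. Interstitial markers summed to 99.2, 205.9, 131.6 and 259.6 CPM in the same sums.

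Set directly against interstitial cells, endothelial cells had 4 collagen genes higher and 20 lower, against 9.47% and 12.9% of all genes. The 4 were Col15a1 (5.40), Col18a1 (4.89), Col4a2 (3.18) and Col4a1 (3.09). Col1a1 (-6.55), Col1a2 (-5.98) and Col3a1 (-5.46) were furthest in the other direction. After thinning to 5000 UMIs, 72.5%, 80.5%, 83.5% and 91.4% of endothelial cells had a Col4a1 UMI, against 14.8% to 31.4% of interstitial cells and 0.619% of 323 erythroid cells (unthinned, 97.7%, 98.9%, 95.3% and 97.1% of endothelial cells).

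Germ cells had few collagen transcripts, and Col18a1 was the collagen gene with the highest level in each of their 4 libraries. Of 33 genes, 2 were higher and 21 lower than in the other classes, against 13.4% and 24.8% of all genes. Col18a1 stood at 55.7, 58.5, 72.4 and 42.0 CPM and was not called. It was found in 26.3%, 25.3%, 29.2% and 16.9% of germ cells thinned to 5000 UMIs, with a median of 30979, 27470, 24593 and 15364 UMIs per cell before thinning, when the shares were 79.0%, 80.1%, 78.1% and 43.9%. Of the 323 erythroid cells, with a median of 23206 to 30199 UMIs per library, 0.929% had a Col18a1 UMI after thinning and 7.12% before. For Col1a2 the exact Poisson intervals of germ and erythroid cells overlapped in all 4 libraries. It was at 2.51, 2.73, 3.77 and 11.7 CPM in germ cells and at 2.67, 2.25, 3.39 and 8.77 CPM in erythroid cells. The intervals are compared for this gene alone, the E12.5 erythroid value comes from 13 cells, and an overlap does not show equal levels. Col1a1, with 313 UMIs in germ cells at E14.5, had a higher CPM there than in erythroid cells of that library.

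The 2 genes called higher in germ cells were both rare and had passed the minimum of 100 UMIs only through germ cells, so their calls support nothing. Col9a1 had 152 UMIs in germ cells and 8 in the other classes, and was at 1.53, 2.21, 3.16 and 1.22 CPM against at most 0.526 CPM elsewhere. Col5a3 had 99 and 8 UMIs, and was at 1.12, 1.74, 1.66 and 0.820 CPM against at most 0.529 CPM elsewhere. With 5 CPM added before the log neither was called. Col9a2 was at 11.3, 11.3, 12.3 and 3.78 CPM in germ cells and was not called. The lower genes were led by Col4a1 (-4.68), Col4a2 (-4.23) and Col5a2 (-4.01). With median-of-ratios scaling the median of all genes in this contrast moved by 0.22, from -0.21 to 0.00, and 20 collagen genes were lower.

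**Figure D3:**
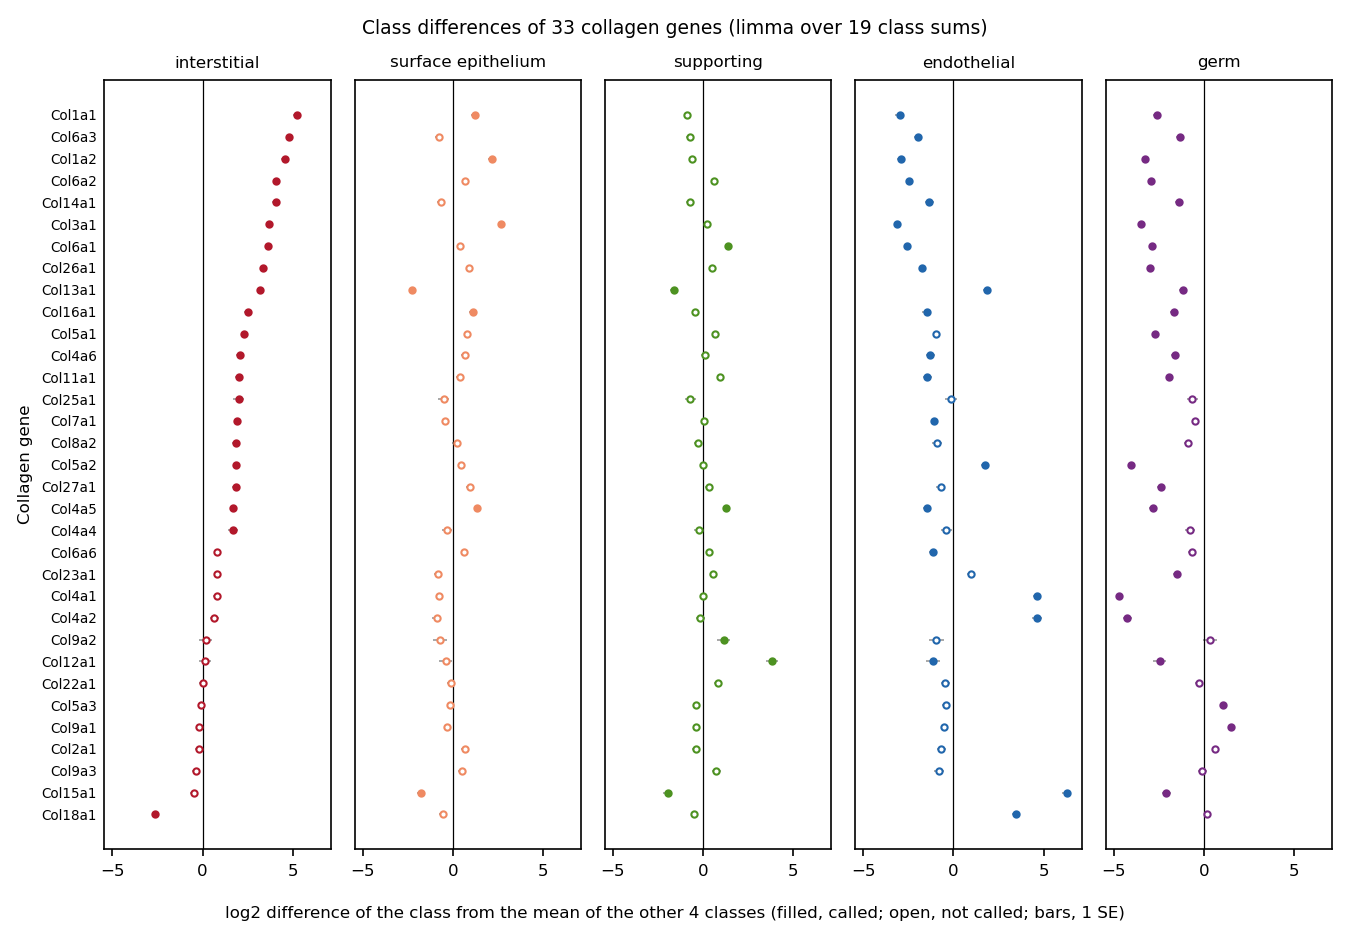
Each panel gives, for 1 class, the log2 difference of the 33 tested collagen genes from the mean of the other 4 classes (limma, 19 class sums), with 1 SE as bars and filled points for called genes. Filled points lie to the right for 20 genes in interstitial cells and for 6 in endothelial cells, and to the left for 21 in germ cells.

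Stage was described by size, with no test. Within a class, a gene counted as different at E14.5 when the 2 libraries together had 50 UMIs or more, the higher level was 20 CPM or more and at least 2 times the lower, and the exact Poisson intervals were separate. In interstitial cells 11 of the 18 collagen genes that met the minimums were higher at E14.5 than at E11.5 and 0 were lower, against 4.69% and 3.69% of all genes. In supporting cells 9 of 12 were higher (6.07% of all genes), and in surface epithelium cells 3 of 9 (4.92%). None was lower in these 2 classes, where 3.41% and 1.98% of all genes were. In endothelial cells 0 of 5 and in germ cells 0 of 1 met the rule, where 2.61% and 22.8% of all genes were higher and 2.68% and 8.41% lower. The median log2 ratio of collagen genes was 1.40 in interstitial, 1.77 in supporting, 0.66 in surface epithelium and -0.09 in endothelial cells, and that of all genes was -0.12, -0.03, -0.06 and -0.06.

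Of the type 6 chains, Col6a1 and Col6a2 were higher at E14.5 in 3 classes. Col6a3 met the rule in interstitial cells alone, with 44 UMIs at E14.5 in supporting and 19 in surface epithelium cells, below the CPM minimum, and Col6a6 met it in no class. Col6a2 had a log2 ratio of 2.73 in interstitial (2.51 to 2.96), 3.33 in surface epithelium (2.85 to 3.85) and 3.05 in supporting cells (2.77 to 3.35). Col6a1 had ratios of 2.68, 3.16 and 2.56 in the same order. Neither chain met the minimums in germ or endothelial cells. For interstitial cells the largest step was from E12.5 to E13.5, with 1.68 for Col6a2 and 1.59 for Col6a1.

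Both type 1 chains met the rule in interstitial and supporting cells. In surface epithelium cells Col1a1 completed the 3 genes, with a log2 ratio of 2.12 (1.77 to 2.48), and Col1a2 (0.64, 0.46 to 0.81) did not meet it. Col1a1 had a log2 ratio of 2.28 in interstitial cells (2.14 to 2.42), and after thinning 32.5%, 41.6%, 68.7% and 84.7% of these cells had a Col1a1 UMI (53.0%, 66.5%, 79.7% and 95.2% unthinned). In supporting cells it was at 2.28, 4.43, 5.02 and 39.6 CPM, a log2 ratio of 4.12 (3.74 to 4.52), with a step of 2.98 between E13.5 and E14.5. Col1a2 was at 8.37, 16.4, 23.7 and 70.0 CPM in supporting cells, a log2 ratio of 3.06, against 1.48 in interstitial cells. The thinned share of supporting cells with a Col1a1 UMI was 1.09%, 1.70%, 1.93% and 9.30% (2.75%, 3.07%, 4.08% and 13.7% unthinned). It was 0.929% in the 323 erythroid cells (6.81% unthinned), which are pooled over the libraries, with 209 from E14.5. Those cells were also deeper than supporting cells, so their share may not give the free RNA level of supporting cells. The 8 interstitial markers in supporting cells, none of them at 0, summed to 207, 164, 178 and 224 CPM. The 8 surface epithelium markers there, none at 0, summed to 111, 178, 253 and 397 CPM and so were also highest at E14.5. The part of either in the E14.5 value was not tested. Erythroid cells had 2.22, 2.25 and 4.96 CPM of Col1a1 at E11.5, E12.5 and E14.5, and no UMI at E13.5, which allows up to 5.08 CPM.

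The other interstitial genes that met the rule were Col9a2 (3.29), Col25a1 (2.96), Col16a1 (1.92), Col6a3 (1.68), Col5a2 (1.63), Col3a1 (1.33) and Col27a1 (1.15). Col9a2 was at 3.02, 3.41, 11.04 and 29.5 CPM and Col25a1, a transmembrane chain, at 2.64, 1.99, 9.99 and 20.5 CPM, both from fewer than 100 UMIs per library. Col4a1 and Col4a2 in interstitial cells were highest at E12.5, at 87.3 and 89.5 CPM, with steps of 1.49 and 1.18 from E11.5. In supporting cells Col3a1 (2.05), Col5a2 (1.93), Col4a1 (1.60), Col4a5 (1.49) and Col4a2 (1.28) met the rule. Col12a1 in supporting cells had a ratio of -0.89 (-1.09 to -0.70) and Col26a1 in interstitial cells -0.61 (-0.87 to -0.35), neither of which reached the size set.

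**Figure D4:**
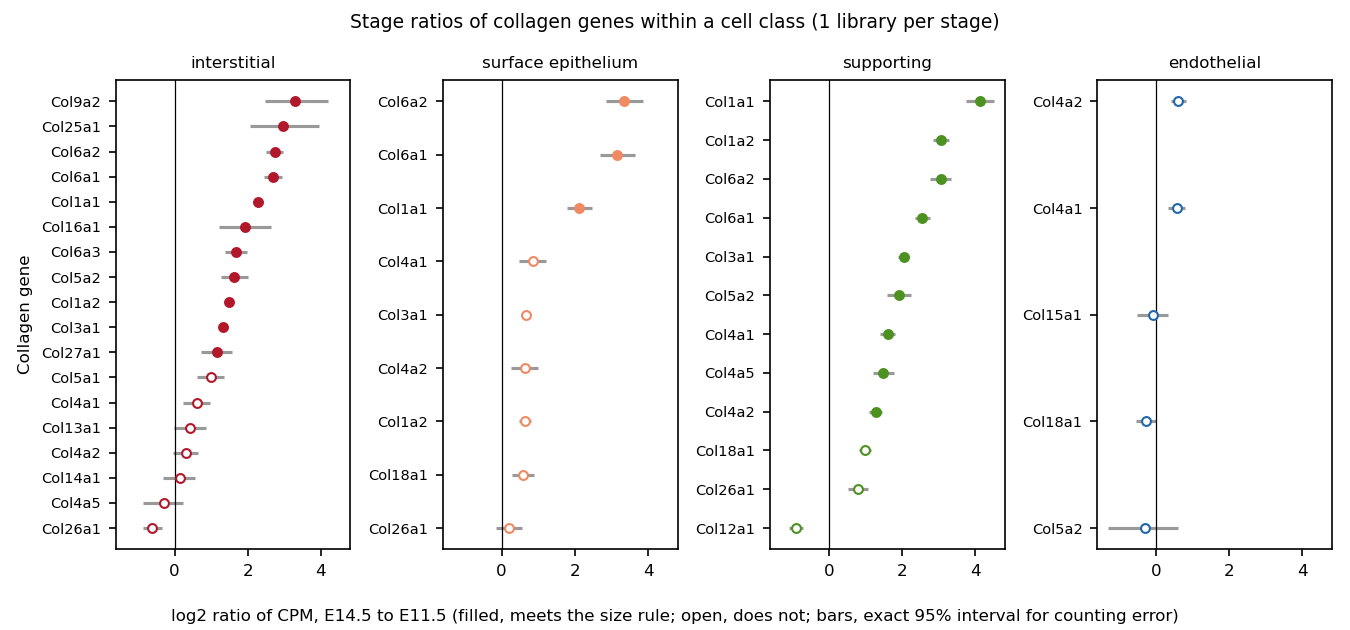
Log2 ratio of CPM at E14.5 to E11.5 for collagen genes that met the minimums in 4 classes, with exact 95% intervals for counting error. Filled points met the size rule, 11 in interstitial, 3 in surface epithelium, 9 in supporting and 0 in endothelial cells.

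The make-up of the interstitial class changed across the same libraries. Cells with Acta2, a smooth muscle actin gene, were 26.9%, 46.5%, 57.9% and 90.5% of interstitial cells in stage order. In a split chosen after the data were seen, cells with Acta2 and no Pdgfra had 2 collagen genes higher and 1 lower at E14.5 among 12 that met the minimums. Col6a1 (1.94) and Col6a2 (1.67) were the 2 higher, and Col14a1 (-2.46) was lower. In that subset 3.29% of all genes were higher and 3.69% lower. Col1a1 had a log2 ratio of 0.97 there, and the sum over all 43 genes 0.57 (0.46 to 0.67). Cells with both genes had 8 higher and 0 lower of 14, against 4.95% and 3.97% of all genes, with 1.96 for Col1a1 and 1.39 (1.29 to 1.495) for the sum. Cells with Pdgfra and no Acta2 had 7 higher and 0 lower of 14, against 2.72% and 2.44%, with 1.94 for Col1a1 and 1.26 (1.10 to 1.41) for the sum, from 18 cells at E14.5. The type 6 chains Col6a1 and Col6a2 thus met the rule in each subset, and Col1a1 in 2 of 3.

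Chains that assemble with each other were not always found at the same ratio. The ratio of UMIs of 2 genes also depends on how well each transcript end is tagged, so it is read here only across classes and libraries. Col4a1 and Col4a2, which share their start region, had a ratio of 0.93 in interstitial (0.84 to 1.02), 0.93 in surface epithelium (0.82 to 1.05), 0.96 in supporting (0.91 to 1.01) and 0.87 in endothelial cells (0.83 to 0.92). In germ cells it was 0.43 (0.35 to 0.51), from 177 and 416 UMIs. That value rests on the E14.5 library (130 and 344 UMIs, 0.38), and without it the ratio was 0.65 (0.44 to 0.96). The intervals of the other 3 germ libraries included 1. Erythroid cells, with 16 and 40 UMIs, had a ratio of 0.40 (0.21 to 0.73), and the part of free RNA in the germ value was not tested.

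For type 1 collagen the ratio of Col1a1 to Col1a2 was 0.62 in interstitial (0.60 to 0.65), 0.35 in supporting (0.31 to 0.38) and 0.23 in surface epithelium cells (0.21 to 0.26). It differed by library in interstitial cells, at 0.46, 0.46, 0.67 and 0.81, and in surface epithelium cells, at 0.15, 0.20, 0.23 and 0.42. In both, the interval at E14.5 lay above that at E11.5. In supporting cells the values were 0.27, 0.27, 0.21 and 0.57.

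Type 6 and type 5 chains gave further class differences. Col6a1 to Col6a2 was 0.87 in interstitial (0.81 to 0.93) and 0.94 in surface epithelium cells (0.82 to 1.09), but 1.74 in supporting cells (1.62 to 1.88), where it was 2.196, 1.86, 1.64 and 1.55 in stage order. Col6a3 to Col6a1 was 0.53 in interstitial (0.81, 0.89, 0.47 and 0.40 in stage order, with E11.5 and E14.5 intervals apart), 0.097 in surface epithelium and 0.055 in supporting cells. Col5a1 to Col5a2 was 0.98 in interstitial and 1.18 in supporting cells but 0.16 in endothelial cells (0.10 to 0.23), from 31 and 198 UMIs, and 2.66 in germ cells (1.98 to 3.62). Beside the germ value, erythroid cells had 159 UMIs of Col5a1 (30.3 CPM) and 2 of Col5a2 at E14.5. For the X-linked pair, Col4a5 to Col4a6 was 2.83 in interstitial, 5.78 in surface epithelium and 9.65 in supporting cells, over all libraries, with intervals apart between interstitial and each of the other 2. Within libraries they overlapped for surface epithelium cells at E11.5, E12.5 and E13.5. For supporting cells they overlapped at E14.5, where the ratio was 5.56 (3.802 to 8.38) against 2.17 (1.21 to 4.02).

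**Figure D5:**
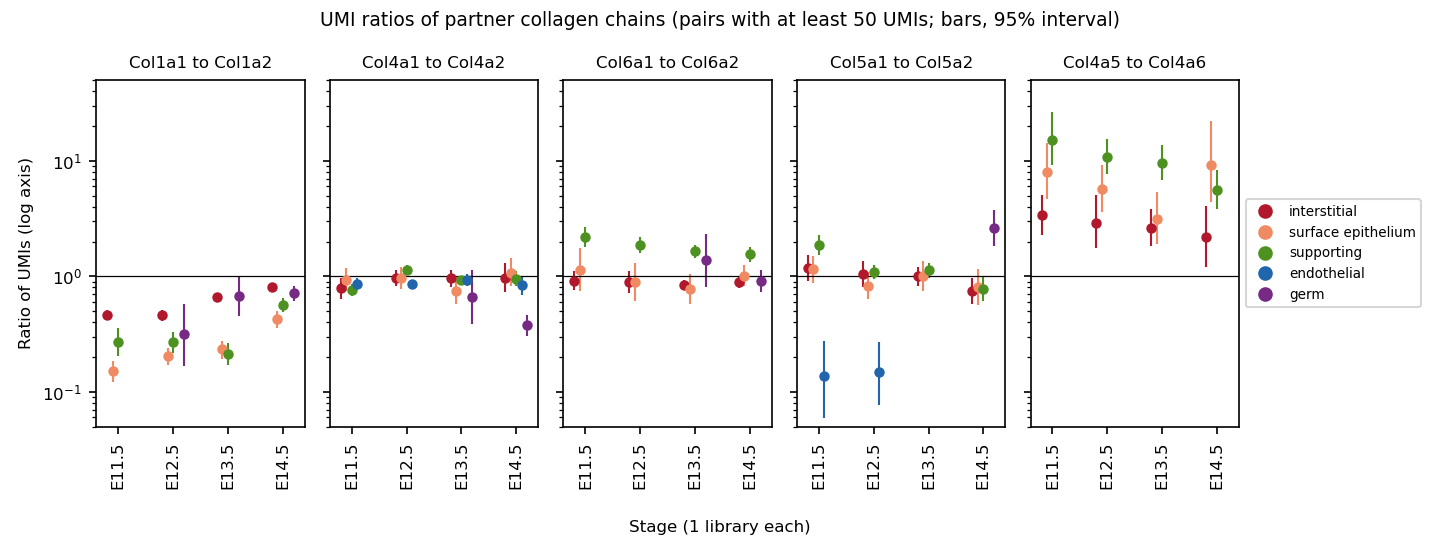
Ratio of UMIs of 2 collagen chains (log axis) by class and library, for pairs with at least 50 UMIs, with exact 95% intervals for counting error. Col4a1 to Col4a2 lies near 1 outside germ cells, and Col6a1 to Col6a2 is above 1 in supporting cells in all 4 libraries. Col1a1 to Col1a2 lies below 1 in every class shown, and no endothelial library had enough UMIs for that pair. Tagging can differ between transcripts, so ratios are read across classes and libraries only.

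Genes that process, bind or break down collagen were taken from lists, to be read against 8.45% of all genes higher and 5.21% lower in interstitial cells. In interstitial cells against the other classes, limma called 7 of 17 tested hydroxylation, folding and secretion genes higher and 0 lower (13 higher and 0 lower at an unadjusted p under 0.05). They included Plod2 (1.86), a lysyl hydroxylase, P4ha3 (1.80), a prolyl hydroxylase subunit, P3h2 (1.77) and Fkbp10 (1.63). Of 10 genes for propeptide removal and cross-linking, 8 were higher and 0 lower (9 and 1 unadjusted), with Loxl1 (3.72) and Loxl3 (2.08), lysyl oxidase family members, Adamts2 (3.31), which removes the N-terminal propeptide, and Pcolce (2.26), which enhances removal of the C-terminal one by other enzymes. The medians were 0.80 and 1.73, against 0.02 for all genes.

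Fibril partners were higher for 8 of 11 and lower for 0 (10 and 0 unadjusted), with median 1.89 and the largest differences in Lum (4.07), Postn (3.86), Dcn (3.65) and Bgn (3.54), of which Lum, Dcn and Bgn encode small proteoglycans. Of 6 breakdown genes 5 were higher and 0 lower (6 and 0 unadjusted), with median 1.93, namely the proteases Mmp2 (3.71), Mmp14 (2.18) and Mmp11 (1.67) and, among inhibitors, Timp2 (2.34) as the largest. Of 6 collagen receptors 3 were higher, Mrc2 (2.17), Ddr2 (1.80) and Itga11 (1.72), and 0 lower (5 and 0 unadjusted), with median 1.35. Of 12 basement membrane partners, Nid1 (1.98) and Lama2 (1.76) were higher and 0 lower (5 and 4 unadjusted), with median 0.04.

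In endothelial cells the order of these lists differed. Of 12 basement membrane partners 7 were higher and 1 lower, with a median difference of 1.34 against -0.16 for all genes. The fibril partner list gave 2 higher and 4 lower of 11, the propeptide and cross-linking list 2 and 4 of 10, and the receptor list 2 and 4 of 6. The list for hydroxylation and folding gave 3 higher and 3 lower of 17, and the breakdown list 3 and 1 of 6. Over all genes 10.8% were higher and 13.46% lower, so the hydroxylation and folding list was near that share. Of the listed genes named above for interstitial cells, Nid1 (3.29), Bgn (1.83), Fkbp10 (1.60), Mmp14 (1.52) and Mmp2 (1.09) were also called higher in endothelial cells. The other named genes were lower or not called there.

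Over the 19 class sums, the genes whose log2(CPM + 1) followed Col1a1 most closely were Mfap4 (Pearson r 0.987), Islr (0.982), Mgp (0.976), Osr1 (0.975) and Col1a2 (0.971). For Col4a1 they were Col4a2 (0.993), Casd1 (0.983), Wipf1 (0.982), Irf2 (0.980) and Stx6 (0.978). These points share 4 libraries and 5 classes, so the values describe likeness across classes and carry no p. Between Col1a1 and the other leading interstitial chains r was 0.915 for Col3a1 and 0.904 for Col6a1, and Col4a1 had 0.162 with Col3a1.

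The remaining genes had low levels. Col22a1 and Col9a3 were highest in supporting cells, at no more than 3.59 and 3.44 CPM, and Col2a1, the main cartilage chain, reached 2.07 CPM in surface epithelium cells. Col23a1, a transmembrane chain with 615 UMIs in all, was at 4.15 to 5.40 CPM in interstitial, 3.44 to 5.86 CPM in supporting and 3.88 to 16.2 CPM in endothelial cells, the last from 8 UMIs. Neither Col23a1 nor Col6a6 was called higher in any class against the other 4. The 10 genes with fewer than 100 UMIs over all class sums were Col19a1 (82 UMIs), Col6a4 (56), Col11a2 (54), Col6a5 (51), Col17a1 (32), Col20a1 (22), Col24a1 (22), Col4a3 (12), Col28a1 (12) and Col8a1 (7). None of them exceeded 2.03 CPM in any class and library, the value of Col11a2 in endothelial cells at E14.5, which is 1 UMI. Col4a3, whose start lies 72 bases from that of Col4a4, had 6 UMIs in interstitial cells against 59 for Col4a4, a ratio of 0.10 (0.036 to 0.23).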

How the data were processed

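Gonad cells of 4 libraries, 1 per stage, were captured with a droplet method that tags the 3′ end of transcripts, per the labels' protocols. Per the submitters' processing notes, Cell Ranger 2.2.0 and the mm10 build were used; cell calling, filters and annotation are not given in the sources used here. The deposited values are natural log values, the ln of 1 plus a gene's UMIs per 10000 UMIs of its cell, a unit read from the values, since no header or label records it. All 69792436 values above 0 came back as whole UMIs once undone and divided by the cell's unit step (relative tolerance 1e-06), so UMIs were recovered for 19387 cells and 19321 genes. Totals per library were 69458291 to 80377418 UMIs. Cells with fewer than 200 genes or more than 20% mitochondrial UMIs (5 cells) and 417 doublets called by Scrublet (scanpy 1.11.5, expected rate 0.06, seed 1) were removed. The plan allowed for recovered UMIs, and count models were not used on them.

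Class sums of at least 50 cells were fitted with limma 3.58.1 (R 4.3.3, trend option) on log2(CPM + 1) with the library as a block. Because each library gives 1 sum per class, the block pairs the classes of a library. Stage differences have no replicates and were described by a size rule, with exact Poisson intervals for levels, exact binomial intervals for ratios and Clopper-Pearson intervals for shares. The fit was also run on simulated sums, with no library effect and no class differences other than the added ones. The outcome of that run is not given here and lends no support to the calls. The collagen genes, the marker genes and the pathway lists were chosen with earlier results of these data known. Genes named with a value in every library were, by rule, the 5 with the highest mean CPM per class, the 3 largest called higher per class, the 3 largest stage ratios per class in each direction and the partner chains; others are named to account for all 43. At most 4 genes per pathway list were named, by size. Alternatives were other pseudocounts, filters, scalings, ratios, thinning depths and class overlaps, no replicate block, doublets kept, a split of interstitial cells and each library left out.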

Additional observations from a re-analysis of the deposited data

Results flagged for a closer look

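A pair of collagen genes had stage ratios of opposite direction in different classes, with counting intervals that exclude 0 in each, and these differences between classes were not tested. Col18a1 had a log2 ratio of E14.5 to E11.5 of 0.57 in surface epithelium cells and 1.0 in supporting cells, against -0.41 in germ cells. Median-of-ratios scaling moved all germ cell ratios of this kind by -0.36 and all supporting cell ratios by -0.11. Col26a1 had a ratio of -0.61 in interstitial cells and 0.79 in supporting cells.

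Collagen was also found in cells outside the 5 classes, at a level above that of erythroid cells (75.9 CPM at E14.5). The 433 cells that met no class rule and were not erythroid had 1673.0 CPM of summed collagen at E14.5, and cells that met several rules had 861.4 CPM.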

How the results depend on the processing

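The pseudocount moved class counts most. With 0.1 CPM added, 15 collagen genes were called in surface epithelium cells (7 with 1 CPM) and 13 in supporting cells (6), while the share of all genes called went from 10.99% to 17.49% and from 19.2% to 26.99%. With 5 CPM added, counts were 4 in surface epithelium, 2 in supporting, 12 in endothelial and 14 in germ cells, and 13 between interstitial and surface epithelium cells, against 4.72%, 9.31%, 12.8%, 22% and 4.94% of all genes. Counting cells of several classes in each gave 3 for supporting cells and 14 between interstitial and surface epithelium cells (12.46% and 5.42% of all genes). Without the replicate block, which pairs the classes of a library, 21, 7, 6, 25 and 23 genes were called in the interstitial, surface epithelium, supporting, endothelial and germ contrasts. The shares of all genes called were 13.66%, 10.77%, 19.22%, 24.8% and 38.03%. Leaving out 1 library at a time left 31 collagen genes to test. In the same order, 20 to 20, 7 to 9, 5 to 7, 19 to 23 and 22 to 22 were called. The shares of all genes called were 13.4% to 14.9%, 10.7% to 11.91%, 19.07% to 21.12%, 23.36% to 26.41% and 37.98% to 40.3%. Interstitial against supporting cells gave 20 to 21 (18.81% to 20.32% of all genes). Interstitial against surface epithelium cells gave 18 to 21 (8.63% to 11.23%), and endothelial against interstitial cells gave 22 to 24 (20.76% to 23.53%). Of 37 single-gene class differences called higher, 0 reversed. Of these, 13 lost a call in at least 1 of 11 alternatives, and 13 of 20 losses came with 5 CPM added. The 37 include Col4a4, Col8a2, Col15a1, Col9a1 and Col5a3, which met the UMI minimum only through the class where they were higher. The alternatives draw on the same libraries, and the differences were picked for their size, so a reversal was unlikely. The absence of reversals therefore lends no support to the calls. Lower calls were not followed gene by gene. With 5 CPM added, the lower collagen genes went from 15 to 7 in endothelial cells and from 21 to 14 in germ cells. Over all 14389 genes, the lower ones went from 1937 to 747 and from 3569 to 2122.

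Stage counts moved with the size set. A ratio of 4 left 5 genes in interstitial and 5 in supporting cells. A ratio of 1.5 gave 7 in surface epithelium and 1 in endothelial cells, no CPM minimum gave 5 in surface epithelium and 11 in germ cells, and cells of several classes counted in each gave 2 in endothelial cells. The share of all genes was not computed under these altered rules, so these counts cannot be set against a background. Under the main rule 22.8% of all genes in germ cells were higher at E14.5 and 8.41% lower. The split by Acta2 and Pdgfra, chosen after seeing the data, gave 3 genes with Acta2 alone and 7 with Pdgfra alone. For the summed level, the mean over cells gave 1.35 in interstitial, 0.80 in surface epithelium, 1.29 in supporting and 0.26 in endothelial cells. A minimum of 10000 UMIs per cell gave 1.58, 0.99 and 1.67 in the first 3 of these, and cells of several classes counted in each gave 0.98 in surface epithelium, 1.47 in supporting and 0.78 in germ cells. Shares at E14.5 with 2000 UMIs per cell and with no thinning were 61.9% and 95.2% for Col1a1 (interstitial), 31.8% and 76.5% for Col3a1 (surface epithelium), 5.64% and 26.7% for Col12a1 (supporting) and 8.32% and 43.9% for Col18a1 (germ), and 60.0% with 2000 UMIs for Col4a1 (endothelial). Cells of several classes counted in each moved Col1a1 to Col1a2 to 0.59 and Col6a3 to Col6a1 to 0.49 in interstitial cells, and Col6a1 to Col6a2 to 1.504 and Col6a3 to Col6a1 to 0.093 in supporting cells. Col4a1 to Col4a2 in germ cells was 0.40 to 0.65 with 1 library left out, added after seeing the data, and 0.65 without E14.5. Col1a1 to Col1a2 was 0.51 with Pdgfra alone, and Col5a1 to Col5a2 was 0.87 with Acta2 alone. The cause of these moves was not tested. Endothelial values at E14.5 are limited by 35 cells, and genes under 100 UMIs by depth.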

Other observations

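Col5a1, a fibrillar chain, was higher in the erythroid cells of the E14.5 library than in 4 of the 5 classes there, with interstitial cells, at 50.5 CPM, as the exception. It stood at 2.67, 6.74, 8.46 and 30.3 CPM in stage order in erythroid cells, of which the E14.5 value rests on 159 UMIs in 209 cells, while Col5a2 had 2 UMIs there (0.381 CPM). Over the 4 libraries 5.26% of 323 erythroid cells had a Col5a1 UMI after thinning to 5000 UMIs, and 27.6% had one before.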
